A study of Macaca mulatta with 6 samples.

Results

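AP-1 and EGR immediate early genes were followed over the day in the adrenal gland of the rhesus macaque, using every probe set that the platform annotation assigns to FOS, FOSB, FOSL2, JUN, JUNB, JUND, EGR1, EGR2, EGR3 or ATF3. This rule found 17 of the 22283 probe sets on the array, and they covered 9 of the 10 genes. No probe set in the annotation used here names EGR2, so EGR2 was not analysed here. The left adrenal of 6 ovariectomized females was collected, 1 animal every 4 h from 3 AM to 11 PM. All 6 animals shared the same housing for 3 months, with 12 h of light and 12 h of dark, 2 meals a day and a fast of 12 h before collection. The 3 AM and 7 AM animals were both 12 years old; the 7 PM animal was the youngest, at 7 years 82 days, and the 11 PM, 3 PM and 11 AM animals were aged 8 years 70 days, 8 years 106 days and 10 years 37 days. Because each clock time is 1 animal, a difference between neighbouring times cannot be told apart from a difference between animals.

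Immediate early genes are transcribed within minutes of a stimulus, without the need for new protein synthesis. Fos and Jun proteins pair through leucine zippers to form the transcription factor AP-1, and EGR proteins bind GC-rich sites through zinc fingers. In the adrenal cortex corticotropin and angiotensin II induce members of both families, and in the chromaffin cells of the medulla splanchnic nerve input does so; EGR1 binds the promoter of PNMT, the enzyme that makes adrenaline, and the promoter of TH, whose enzyme limits the rate at which catecholamines are made, carries an AP-1 site.

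Values are array intensities on a linear scale, which the authors had scaled to a common level per array. Levels were compared within a probe set, since the probes were designed on human sequence and different probe sets bind with different strength. Each gene was represented by its probe set with the highest mean, and 8 of the 9 genes lay above the level filter, the median over all probe sets that are not controls (an intensity of 157). FOSB was below it. Tests were fitted with limma to log2(value + 1) over all 7164 genes above the filter.

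The arrays resembled each other (Pearson correlation of log2 values across probe sets from 0.916 to 0.928, where probe sets are not replicates). Added hybridisation controls were lower at 3 AM and 3 PM (geometric mean 414 and 538) than on the other 4 arrays (790 to 900). The ratio of 3' to 5' signal, which rises as RNA degrades, was lowest at 7 AM (0.721) and highest at 7 PM (1.15) and 3 PM (1.16) for GAPDH control probes. The same ratio for ACTB ran otherwise, from 0.610 at 3 PM to 0.819 at 3 AM, with 0.802 at 7 AM and 0.813 at 7 PM. The tissue carried both parts of the gland: 11 cortical markers summed to between 61921 and 98352 intensity units per array and 11 chromaffin markers to between 16992 and 43526, with the lowest chromaffin sum at 3 AM and the highest at 7 AM. In bulk tissue, fewer cells of a type and less RNA per cell cannot be told apart.

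Across the 6 clock times, the AP-1 and EGR genes were mostly low in the 7 PM and 11 AM glands. They were mostly high in the 11 PM and 7 AM glands. At 7 PM 0 of the 8 tested genes exceeded their own mean over the arrays, where 54.1% of all genes tested did. JUND lay only just below its mean there (-0.02 on the log2 scale). At 11 AM only JUNB exceeded its own mean, 1 of 8, against 52.6% of all genes. At 11 PM 7 of 8 exceeded it, all except FOS, against 48.9% of all genes, and at 7 AM 6 of 8 did, all except FOSL2 and ATF3, against 47.5%. EGR3 passed the level filter only through its 7 AM and 11 PM arrays, so its place in the counts of this paragraph is no support for them. The median departure from a gene's own mean was -0.41 at 7 PM, -0.17 at 11 AM, 0.25 at 7 AM and 0.25 at 11 PM on the log2 scale. The median over all genes lay between -0.02 and 0.03 on the 6 arrays. Only 2 of the 8, JUNB and EGR1, had their lowest value at 7 PM (15.1% of all genes did). Another 2, JUND and ATF3, had it at 11 AM (12.8% of all genes). Under quantile normalization 1 of 8 exceeded its own mean at 7 PM, as did 1 without the 7 AM or the 11 PM array.

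**Figure D1:**
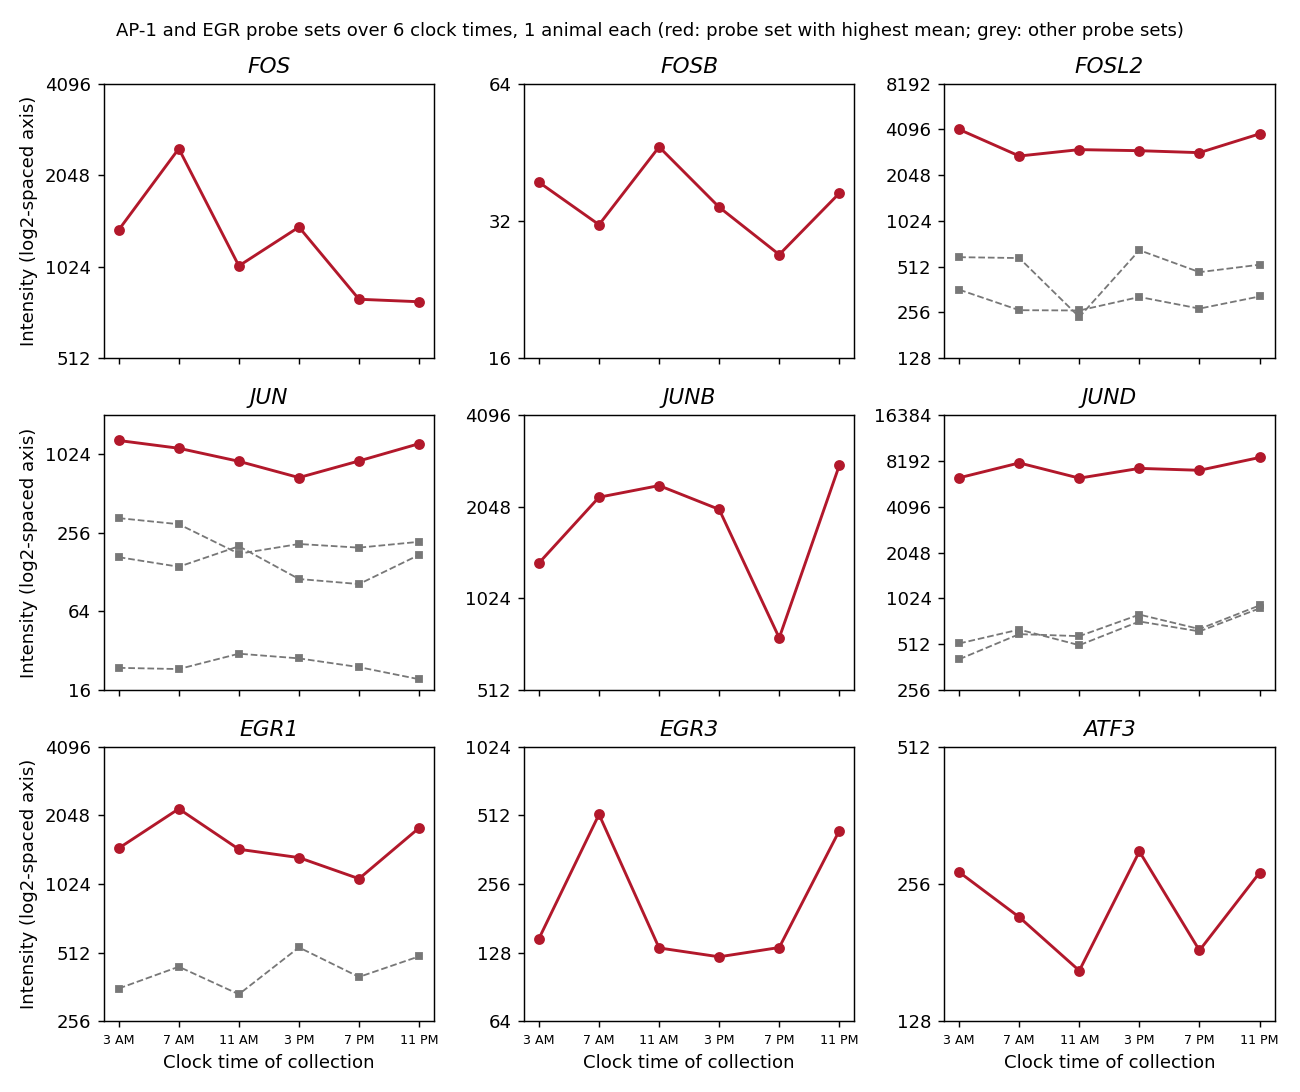
Intensity (log2-spaced axis) of each probe set against clock time of collection, 1 animal per point; red lines are the probe set with the highest mean for each gene and grey dashed lines the others. EGR3 was high only on the 7 AM and 11 PM arrays, FOS highest at 7 AM, and JUNB lowest at 7 PM.

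Among the Fos family, FOS, the inducible partner of Jun in AP-1, had an intensity of 1353 at 3 AM, 2504 at 7 AM, 1030 at 11 AM, 1383 at 3 PM, 800.3 at 7 PM and 785.4 at 11 PM. The 7 AM gland stood 1.81-fold above the next highest, and the 7 PM and 11 PM glands lay close together at the bottom. The fitted 24-h cosine peaked at 7.76 h, with a peak 2.36 times its trough (log2 1.24 ± 0.45, SE). It did not pass limma's moderated F test (unadjusted p = 0.0716, adjusted p = 0.836). The log2 peak-to-trough difference was 0.66 without the 7 AM array, and it passed unadjusted without the 11 AM array (1.91, unadjusted p = 0.00261, limma) or the 3 PM array (unadjusted p = 0.0384). The highest FOS value was 3.19 times the lowest, and 5.99% of all genes had a larger range on the log2 scale.

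FOSL2, which encodes Fra-2, a Fos relative that persists longer after a stimulus, ran from 2737 at 7 AM to 4093 at 3 AM on its strongest probe set, with 3828 at 11 PM and 2880 to 3016 on the arrays between 11 AM and 7 PM. The 3 AM and 11 PM glands were thus the highest, and the other 4 lay within a narrow band. A second probe set (218881_s_at) was also highest at 3 AM (361.6) and next at 11 PM (326.2). The third (205409_at) differed: it was highest at 3 PM (657.6) and lowest at 11 AM (238.9), 1.97-fold below the next array. FOSB, the closest relative of FOS, ranged from 27.0 at 7 PM to 46.5 at 11 AM and stayed below the level filter on its single probe set, so it was left out of the tests over genes. Tested with every probe set on its own, it passed neither the cosine (unadjusted p = 0.716, limma) nor the daytime contrast (unadjusted p = 0.659).

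In the Jun family, JUN, the main Jun partner in AP-1, followed a smooth course on its strongest probe set: 1311 at 3 AM, 1143 at 7 AM, 907.2 at 11 AM, 680.6 at 3 PM, 913.3 at 7 PM and 1239 at 11 PM. The 3 PM gland was the lowest, and the 3 glands from 11 PM to 7 AM all lay above the 3 from 11 AM to 7 PM. The cosine peaked at 2.69 h with a peak 1.85 times its trough (log2 0.89 ± 0.26, SE) and an R2 of 0.946. JUN was the 1 gene of 8 past an unadjusted p of 0.05 by limma's moderated F test (unadjusted p = 0.0284, adjusted p = 0.836), a threshold that 5.56% of all genes passed. After adjustment over all genes 0 of 8 passed, as did 0% of the 7164. Leaving out any 1 of the 11 PM, 3 AM, 11 AM and 3 PM arrays ended the call (unadjusted p from 0.0511 to 0.177). With the mean of all 4 JUN probe sets in place of the strongest, the peak exceeded the trough by log2 0.47 (unadjusted p = 0.217, limma). With age as a covariate JUN did not pass (unadjusted p = 0.0669, limma, peak at 4.18 h). With every probe set tested on its own, 0 of 17 passed, beside 5.14% of all probe sets.

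The 4 probe sets of JUN did not follow 1 course. The other one above the level filter (213281_at) was also highest at 3 AM (332.5) but lowest at 11 AM (177.2), with a fitted peak at 3.86 h. Both probe sets below the filter were highest at 11 AM, at 30.3 (201465_s_at) and 202.3 (201466_s_at). The strongest JUN probe set carries the suffix _x_at, which the manufacturer gives to probe sets whose probes can match other sequences, so its signal may hold RNA of other genes.

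JUNB, a Jun family member that often opposes JUN at shared target genes, had the largest range of the Jun family: 1338 at 3 AM, 2202 at 7 AM, 2404 at 11 AM, 2008 at 3 PM, 758.7 at 7 PM and 2802 at 11 PM. The 7 PM gland lay 1.76-fold below the next lowest, and the highest value, from the array 4 h later, was 3.69 times the 7 PM value. Of all genes 3.80% had a larger range. A 24-h cosine described this course poorly (R2 0.191, unadjusted p = 0.500, limma's moderated F test). That result turned on single glands. Without the 11 PM array the log2 peak-to-trough difference was 1.90 with a peak at 9.88 h (unadjusted p = 0.00737, limma). Without the 7 PM array it was 0.42 with a peak at 17.0 h.

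JUND, the constitutive member of the family, had the smallest range. Its strongest probe set ran from 6319 at 11 AM to 8638 at 11 PM, a ratio of 1.37, and 85.1% of all genes had a larger range. Each of the 3 JUND probe sets was highest at 11 PM, while the lowest value fell at 11 AM on 2 of them and at 3 AM on the third (406.9, a ratio of 2.26 to its highest).

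**Figure D2:**
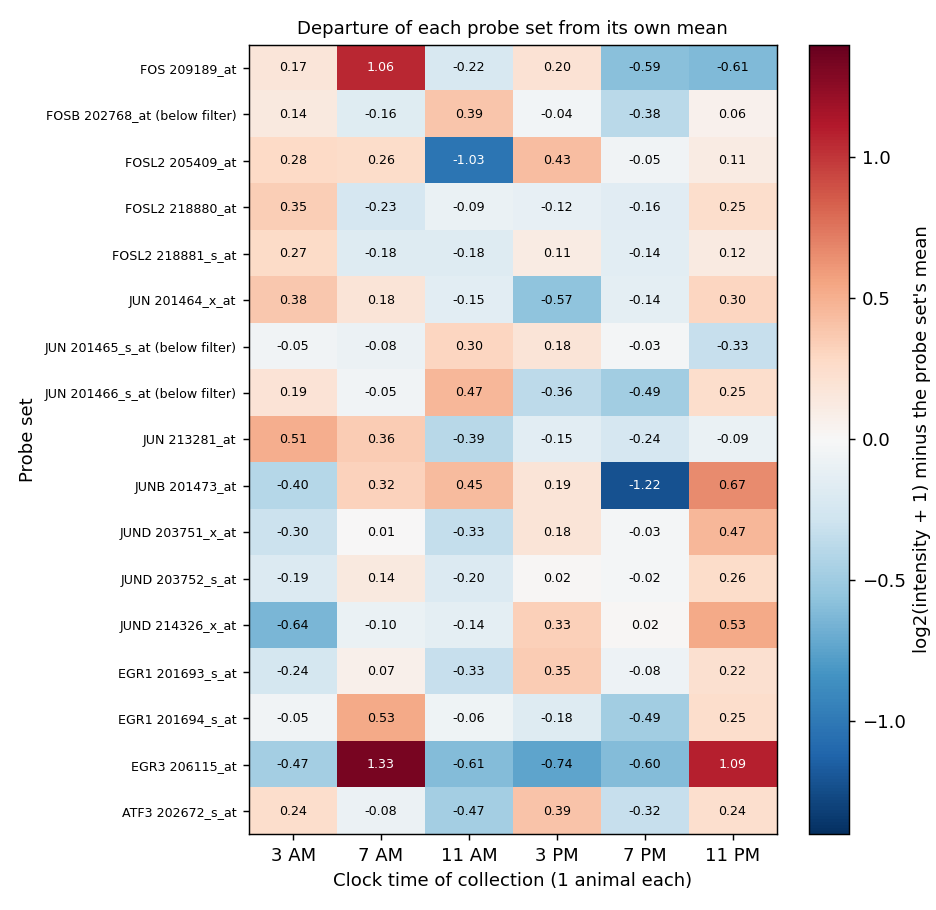
Departure of each of the 17 probe sets (y axis) from its own mean at each clock time (x axis), as colour on the log2(intensity + 1) scale. At 7 PM only 1 of the 17 exceeded its own mean, the JUND probe set 214326_x_at, at 11 AM 4 did, and at 11 PM 14 did. Of the 14 above the level filter, 1 did at 7 PM, 1 at 11 AM and 12 at 11 PM. Among all genes tested, each by its strongest probe set, the shares were 54.1%, 52.6% and 48.9%.

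In the EGR family, EGR3, a zinc-finger factor induced by growth factors and nerve activity, had the largest range of all 8 genes. Its intensity was 147.7 at 3 AM, 517.6 at 7 AM, 134.4 at 11 AM, 122.9 at 3 PM, 135.0 at 7 PM and 439.2 at 11 PM. The 7 AM and 11 PM glands were high and the other 4 were near one another: the gap between 11 PM and the next array, 3 AM, was 2.96-fold, while those 4 arrays spanned 122.9 to 147.7. The highest value was 4.21 times the lowest, and 2.69% of all genes had a larger range. With a pair of high arrays separated by the low 3 AM array, the cosine left most of the variance (R2 0.326, unadjusted p = 0.254, limma's moderated F test). Without the low 3 AM array the fitted log2 peak-to-trough difference was 2.94 (unadjusted p = 0.00161, limma), compared with 1.39 for all 6 arrays, but its peak at 3.17 h fell at the time left out and its size exceeded the observed log2 range of 2.07. Without the 7 AM array the peak was at 23.6 h.

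EGR1, the founding member of the family, was also highest at 7 AM (2191) and 11 PM (1806), lowest at 7 PM (1082), and lay at 1471 at 3 AM, 1456 at 11 AM and 1339 at 3 PM. The order of the 2 highest arrays was that of EGR3, but the highest value was only 2.03 times the lowest. Its second probe set (201693_s_at) was highest at 3 PM (540.6) and lowest at 11 AM (336.8), so the EGR1 course depended on the probe set.

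ATF3, a stress-induced factor that pairs with Jun proteins, ran from 165.4 at 11 AM to 301.9 at 3 PM, with 272.0 at 3 AM and 271.1 at 11 PM. Its arrays showed no smooth course, and a cosine accounted for little of it (R2 0.149). For these 8 genes the median log2 range was 0.98, beside 0.76 over all genes, and 4 of 8 (FOS, JUNB, EGR1 and EGR3) had a highest value at least 2 times the lowest, as 27.6% of all genes did. EGR3 entered this count through the same arrays that carried it past the level filter.

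The question of a difference between day and night was addressed by comparing 7 AM, 11 AM and 3 PM with 7 PM, 11 PM and 3 AM. These are 3 arrays against 3, a design in which an exact test cannot go below 0.1. The labels do not give the hour of lights-on, so day and night are here sets of clock times. Whether the 7 AM and 7 PM glands were taken in light or dark is not known. The AP-1 and EGR genes did not move in 1 direction: 3 of 8 had the higher mean by day, beside 49.1% of all genes, and the median log2 difference was -0.02, beside -0.0043 for all genes. By limma 0 of 8 passed an unadjusted p of 0.05 (5.39% of all genes did), 0 of 17 probe sets passed on their own (5.03% of all probe sets did) and 0 passed after adjustment (0% of all genes). FOS had the largest difference, 0.69 ± 0.35 (SE) higher by day (unadjusted p = 0.0823, adjusted p = 0.894), followed by JUNB at 0.63 ± 0.41. For both genes the daytime and night arrays overlapped, as they did for all 8; the arrays did not overlap for 5.61% of all genes with the higher values by day and 5.26% with the lower. JUN and FOSL2 had the lower mean by day, at -0.36 ± 0.25 and -0.29 ± 0.20, and EGR3 was at -0.01 ± 0.61, with 1 of its high arrays on each side.

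FOS and JUNB depended on single glands here. Without the 7 AM array the FOS difference was 0.33, and without the 3 AM or the 11 AM array it was 0.95 or 0.97 and passed the unadjusted threshold (unadjusted p = 0.0314 and unadjusted p = 0.0243, limma). The JUNB difference was 0.18 without the 7 PM array and 1.12 without the 11 PM array (unadjusted p = 0.00423, limma).

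The day was also split 4 h later, 11 AM, 3 PM and 7 PM against 11 PM, 3 AM and 7 AM. On their strongest probe sets all 8 genes had the lower mean in the late morning to evening arrays, beside 45.2% of all genes. With every probe set on its own 15 of 17 did. These 17 hold several probe sets for each of 4 genes, and only 14 of them lay above the level filter. No share over all probe sets stands beside this count, so it is no wider support than the count of genes. The median log2 difference of the 8 genes was -0.40, and 0.03 over all genes. EGR3 was 2.46-fold higher in the late night to early morning arrays (log2 difference -1.30 ± 0.42, SE, unadjusted p = 0.0137, adjusted p = 0.877, limma) and JUN 1.49-fold higher (-0.57 ± 0.20, SE, unadjusted p = 0.0179, adjusted p = 0.877, limma). These 2 of 8 passed the unadjusted threshold in that direction, which 2.09% of all genes did (5.42% in either direction), and 0 passed after adjustment (0% of all genes, lowest adjusted p = 0.223, limma). For EGR3, JUN and EGR1 the 2 sets of arrays did not overlap on the strongest probe set, as for 4.23% of all genes in that direction. EGR3 had passed the level filter only through its 7 AM and 11 PM arrays, both in the higher set. Its place in these counts is therefore no support for the split. The second EGR1 probe set was highest at 3 PM, in the set where EGR1 was lower. EGR1 differed by -0.49 ± 0.22 (SE, unadjusted p = 0.0544, limma). This split is 1 of several ways to divide the day, and it was listed as an alternative with earlier results of these data known.

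**Figure D3:**
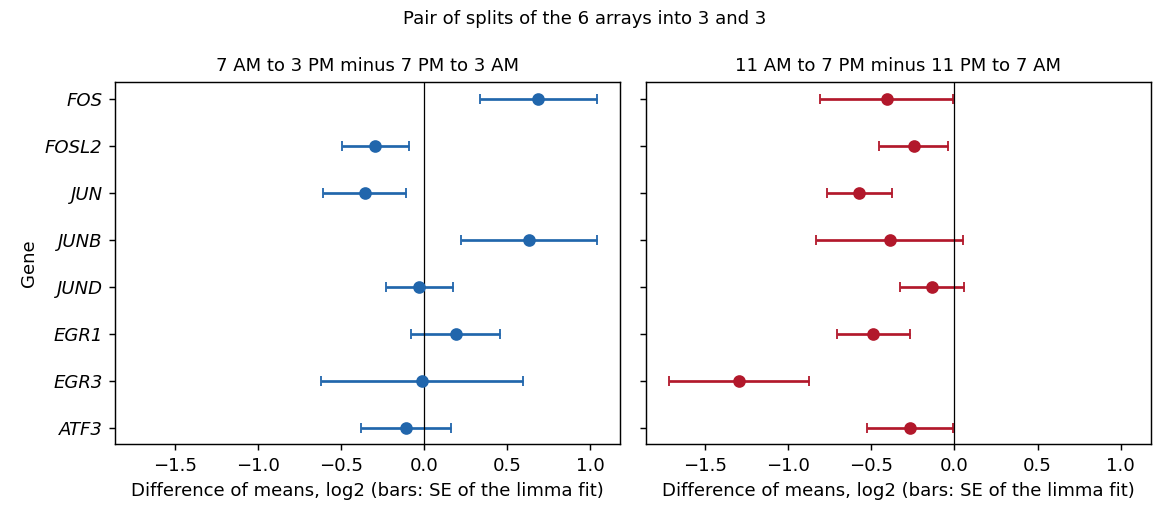
Difference of means (log2, x axis) for each of the 8 genes under the daytime split (left) and the split 4 h later (right); points are limma estimates, 3 arrays against 3, and bars are standard errors. On the left the genes lie on both sides of 0, from -0.36 to 0.69, and on the right all lie below 0, from -1.30 to -0.14.

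Without any single array 7 or 8 of 8 genes still had the lower mean from 11 AM to 7 PM. EGR3 no longer passed without the 7 AM array (-0.96, unadjusted p = 0.0539, limma) or the 11 PM array (-1.08, unadjusted p = 0.0512), nor with limma's ordinary in place of its moderated statistic (unadjusted p = 0.0839). JUN no longer passed without the 3 AM array (-0.53, unadjusted p = 0.0502, limma) or the 3 PM array (-0.43, unadjusted p = 0.0711). With the animals' age as a covariate EGR3 was at -1.56 (unadjusted p = 0.0198) and JUN at -0.56 (unadjusted p = 0.0594, limma), and 7 of 8 genes had the lower mean. EGR1 passed without the 3 AM array (-0.63, unadjusted p = 0.0258, limma) and with arrays centred on their median (-0.58, unadjusted p = 0.0322). It was weaker without the 7 AM array (-0.35, unadjusted p = 0.168, limma) or the 7 PM array (-0.37, unadjusted p = 0.173). The same held with age as a covariate (-0.40, unadjusted p = 0.196) and with the mean of the EGR1 probe sets (-0.26, unadjusted p = 0.229, limma). With the mean of all JUN probe sets JUN was at -0.26 (unadjusted p = 0.179, limma).

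A pair of comparisons was available between animals of like age, each 1 gland against 1 and so without a test. From 3 AM to 7 AM, both 12 years old, EGR3 was 3.49-fold higher, FOS 1.85-fold and JUNB 1.64-fold, and EGR1 was 1.49-fold higher. At 1.5-fold or more, 3 of 8 were higher at 7 AM (11.0% of all genes) and 0 lower (12.8%), with FOSL2 just short of that line (log2 difference -0.58). From 3 PM to 11 PM, both 8 years old, EGR3 was 3.55-fold higher and JUN 1.82-fold, the 2 of 8 past 1.5-fold (9.27% of all genes), while FOS was 1.76-fold lower, the 1 of 8 in that direction (12.3%). EGR3 was higher on the second array of both pairs. It had passed the level filter only through those second arrays, 7 AM and 11 PM. Its first arrays (147.7 at 3 AM, 122.9 at 3 PM) lay below the intensity of the filter. The place of EGR3 in the counts of both pairs is therefore no support for them. FOS was higher on the second array of the first pair and lower on that of the second pair. The pairs were alike in age only. Added hybridisation controls were lower on the first arrays (414 at 3 AM, 538 at 3 PM) than on the second (790 at 7 AM, 882 at 11 PM). Chromaffin marker sums rose from 16992 to 43526 in the first pair and fell from 31950 to 24107 in the second. The part of either in these differences was not tested.

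Other immediate early genes shared the low 7 PM values. Of 34 listed, 26 were tested. At 7 PM 4 of the 26 exceeded their own mean, beside 54.1% of all genes, and 16 had their lowest value there, beside 15.1% of all genes. The median departure at 7 PM was -0.63 on the log2 scale. RGS2, a regulator of G protein signalling, was at 271.9 at 7 PM and 2279 at 11 AM, and TRIB1, a pseudokinase, at 177.5 at 7 PM and 512.4 at 7 AM. The orphan nuclear receptor gene NR4A2 was at 254.6 at 7 PM and 902.3 at 7 AM. By day 22 of these 26 genes had the higher mean, beside 49.1% of all genes. Their median log2 difference was 0.30, unlike the -0.02 of the AP-1 and EGR genes, and the difference between the lists was not tested. At the unadjusted threshold of limma's test 5 were higher by day (NR4A1, NR4A2, KLF2, SGK1 and RGS2) and 1 lower (GADD45A), beside 2.95% and 2.44% of all genes. Of these RGS2 had the largest difference (1.97 ± 0.38, SE, unadjusted p = 0.000687, adjusted p = 0.620), then NR4A1 (1.54) and NR4A2 (1.11 ± 0.25, SE). The 24-h cosine passed unadjusted for 6 of the 26 (5.56% of all genes), with TRIB1 (2.69 times, peak at 7.29 h, unadjusted p = 0.00188) and RGS2 (log2 peak-to-trough difference 2.58, peak at 11.0 h, unadjusted p = 0.0189, limma) having the smallest p, and for 0 after adjustment. In the later split 20 of 26 were lower from 11 AM to 7 PM (45.2% of all genes), and ZFP36 (-0.98) and KLF10 (-0.72) passed unadjusted (2.09% of all genes).

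All 4 tested dual specificity phosphatases, which switch off the MAP kinases that induce AP-1 and EGR genes, had their lowest value at 7 PM, where 15.1% of all genes had theirs. DUSP6 was at 399.7 at 7 PM and 838.5 at 11 AM, and DUSP5 at 150.1 at 7 PM and 439.4 at 3 PM; 0 of the 4 passed either test unadjusted.

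Kinases and transcription factors upstream lay on both sides of their own means at 7 PM. Of 23 listed, 16 were tested. At 7 PM 8 of 16 exceeded their own mean (54.1% of all genes), 2 had their lowest value (15.1% of all genes), and the median departure was 0.04. RPS6KA1, a kinase activated by ERK, was the 1 of 16 whose cosine passed unadjusted (1.92 times, peak at 20.8 h, unadjusted p = 0.0441, limma), beside 5.56% of all genes. It was highest at 7 PM (532.3). MAPK3, which encodes ERK1, ranged from 128.5 at 3 PM to 895.8 at 7 AM, and MAP2K2, a kinase that activates it, from 143.8 at 3 AM to 1100 at 11 AM, neither passing either test. Of 3 tested EGR family genes and corepressors, EGR4 was lowest at 7 PM (175.9) and highest at 11 PM (462.4), while the corepressor NAB1 stayed between 723.7 and 879.1 and NAB2 between 161.7 and 307.9.

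**Figure D4:**
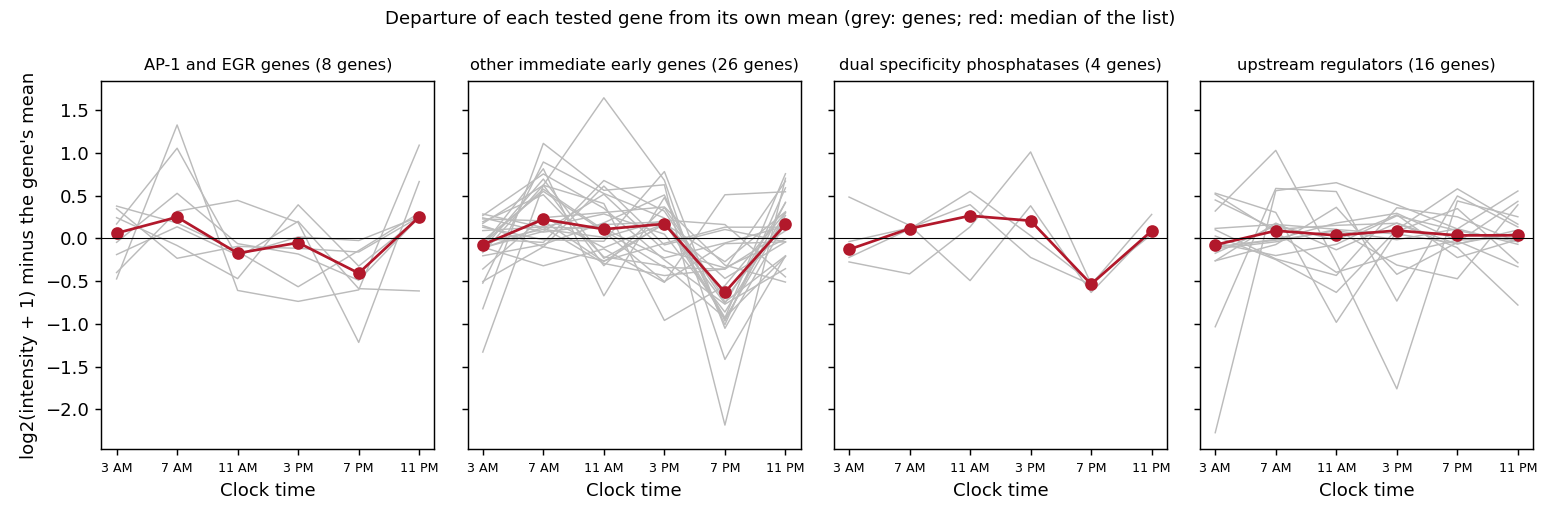
Departure of each tested gene from its own mean (log2, y axis) by clock time for 4 lists; grey lines are genes and the red line is the list's median. The medians at 7 PM are -0.41 for AP-1 and EGR genes, -0.63 for other immediate early genes, -0.54 for dual specificity phosphatases and 0.04 for upstream regulators.

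Among 7 tested bZIP partners of AP-1, 4 exceeded their own mean at 7 PM, beside 54.1% of all genes. ATF5 was the 1 whose cosine passed unadjusted (2.77 times, peak at 20.4 h, unadjusted p = 0.00762, adjusted p = 0.836, limma), as it did for 5.56% of all genes. ATF5 was at 441.3 at 7 PM and 472.6 at 11 PM, and the remaining 4 arrays ranged from 183.1 to 266.6. ATF2 ran from 317.7 at 3 PM to 457.0 at 3 AM. The small Maf genes MAFF and MAFG had daytime differences of 0.52 ± 0.26 and 0.41 ± 0.20 (SE), which did not pass; MAFF was lowest at 7 PM (177.3).

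Of 13 known target genes tested, 11 exceeded their own mean at 7 PM, beside 54.1% of all genes, and the exceptions were TH (3749 there) and PNMT (1389). From 11 AM to 7 PM 12 had the higher mean, where 45.2% of all genes had the lower. CCND1 and TGFB1 passed unadjusted, beside 5.42% of all genes in either direction. TH and PNMT were the 2 of 13 that passed unadjusted in the daytime contrast, both higher by day (1.09 ± 0.31 and 1.10 ± 0.29, SE, unadjusted p = 0.00627 and unadjusted p = 0.00419, adjusted p = 0.759 for both, limma). In that direction 2.95% of all genes passed. Both were highest at 7 AM, with TH at 8245 and PNMT at 3597, as were FOS, EGR3 and the strongest EGR1 probe set. The second EGR1 probe set was highest at 3 PM. A link between these genes was not tested. TH and PNMT also stand in the list of chromaffin markers. Of these 11 of 11 had the higher mean by day (median log2 difference 0.61), beside 49.1% of all genes. At the unadjusted threshold 4 of 11 passed, beside 2.95% of all genes in that direction, DBH and GATA3 being the others. The cosine passed unadjusted for EZR, an actin linker (2.13 times, peak at 18.8 h, unadjusted p = 0.0435, limma), as for 5.56% of all genes.

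Cell type markers also differed between the glands. The share of all genes above their own mean was 51.9% at 3 AM, 47.5% at 7 AM, 55.2% at 3 PM, 54.1% at 7 PM and 48.9% at 11 PM. Of 11 chromaffin markers, 9 exceeded their own mean at 7 AM, where FOS, EGR3 and the strongest EGR1 probe set were highest. At 3 AM 0 did, at 7 PM 7 and at 11 PM 1, where EGR3 was nearly as high. All 11 cortical markers exceeded their own mean both at 7 PM and at 11 PM, on which AP-1 and EGR genes were low and high, and their sums were 98352 and 94227. Smooth muscle markers summed to 7292 at 7 PM, their highest, and to 2724 at 11 PM, their lowest, with 4 of 4 and 0 of 4 above their own mean. Of 5 endothelial markers 2 exceeded their own mean at 7 PM and 0 at 11 PM, and the 3 macrophage markers summed to between 774 (7 PM) and 1042 (7 AM). The 3 adipocyte markers all exceeded their own mean at 3 AM and 11 PM. FOSL2 and JUN were highest on those arrays on their strongest probe sets, but not on all their other probe sets. None of the adipocyte markers exceeded its own mean at 7 AM or 3 PM. These markers summed to 3912 at 3 AM, 3515 at 11 PM, 1459 at 7 AM and 1495 at 3 PM. Of these LPL and FABP4 were lower by day (-1.04 and -0.93, unadjusted p = 0.0087 and unadjusted p = 0.0155, limma), a direction in which 2.44% of all genes passed. Of 5 lymphocyte markers 5 exceeded their own mean at 3 PM, 4 at 7 PM and 1 at 7 AM and at 11 PM, with sums from 1006 to 1482. Of 4 fibroblast markers 4 did so at 7 PM and 3 at 3 AM, with sums from 12595 to 15775. COL3A1 was highest at 3 AM (1433) and lowest at 3 PM (419.9), as was JUN on its strongest probe set. The other fibroblast markers ran otherwise. COL1A1 was highest at 3 AM (1801) but lowest at 7 AM (1153). COL1A2 was highest at 7 PM (4018) and lowest at 11 PM (2804), and DCN highest at 7 AM (9477) and lowest at 3 PM (7350.5). The 1 tested Schwann cell marker, SOX10, ran from 115.2 at 3 PM to 362.1 at 7 PM, the red blood cell marker HBB from 1492 at 11 PM to 2669 at 11 AM, and the kidney marker AQP2 from 353.3 at 11 AM to 567.3 at 3 PM. No value on any array was 0. The part of these markers and of RNA integrity in the AP-1 and EGR values was not tested.

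The genes most like the AP-1 and EGR genes were found by Pearson's r with the mean standardized profile of the 8 genes over the 6 arrays. They were EXPH5 (r = 0.996), GANAB (0.994), CLCN4 (0.986), MICU2 (0.975) and HOPX (0.974), and 39 of 7156 other genes reached 0.9. HOPX ran from 525.9 at 7 PM to 1156 at 11 PM, and MICU2 from 93.3 to 305.7 on the same arrays, whereas CLCN4 ran only from 199.2 to 226.4. With 6 points and so many candidates such values are a description. Of the 8 genes themselves, EGR1 (0.903) and EGR3 (0.853) were closest to their shared mean profile and FOSL2 (0.389) and FOS (0.419) farthest from it. Each of the 8 is itself part of that mean, which raises its r.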

How the data were processed

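The authors' deposited values are 1 intensity per probe set and array, linear, from 0.1 to 40394, from Affymetrix human arrays per the labels' protocols. Each array's trimmed mean (2% off each end) lies between 325.04 and 325.09, so they had been scaled; the sources used here do not give the summary software. Of the probe sets 68 are controls, 19065 name 1 gene, 1043 several and 2107 none. Values were converted to log2(value + 1), and genes kept where their strongest single-gene probe set had a mean log2 at or above 7.30, which left 7164 of 11963. Cosine (24 h period, 3 residual degrees of freedom) and 3-against-3 contrasts were fitted with limma 3.58.1 in R 4.3.3 with Benjamini-Hochberg adjustment over all genes at 0.05. The fits were tested on simulated data. Members and lists were chosen with earlier results of these data known. Named genes are all members, the 2 genes of each other pathway list (not the cell type markers) with the smallest p of the cosine and of the daytime contrast, and the 5 most like the members; others were named after their values were seen. Promoters and protein sequences were not analysed here.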

Additional observations from a re-analysis of the deposited data

How the results depend on the processing

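No paired analysis was possible because there is only 1 animal per clock time. Genes past adjustment numbered 0 in both tests, with 398 and 386 at an unadjusted p under 0.05 (limma). They became 1 with the stricter filter (cosine), and 0 to 1 without single arrays in the daytime contrast; unadjusted counts were 621 and 605 with no filter, 244 and 256 with the stricter filter and 1141 and 1117 with every probe set on its own, where other numbers were tested. The 1 member past the cosine became 0 with no filter, with every probe set and with the mean of probe sets, and 2 with a trend and robust prior, the second being FOS. It stayed at 1 with age as a covariate and without the 3 AM array, and in both of these settings EGR3 passed in place of JUN. Without the 11 AM or the 3 PM array the 1 was FOS, and without the 11 PM array it was JUNB. The 0 members past the daytime contrast became 2 in the later split and 0 to 1 without single arrays. In that split the 2 members became 1 with the mean of probe sets, with the ordinary statistic and with age as a covariate, and ran from 1 to 2 without single arrays. The 0 members above their own mean at 7 PM became 1 under quantile normalization and 1 of 17 with every probe set, and ran from 0 to 1 without single arrays; these counts and the alternatives to the later split were added after the data had been seen. In the later split FOS, JUNB and EGR1 turned to -0.41, -0.39 and -0.49. With age as a covariate the FOS peak moved to 16 h (log2 peak-to-trough 0.88) and that of JUND to 5.62 h (1.01), and EGR3 gave 7.29, beyond its observed range of 2.07. Without single arrays the daytime difference ran from -0.026 to 0.36 for EGR1, -0.68 to 0.53 for EGR3, -0.13 to 0.093 for JUND and -0.33 to 0.10 for ATF3, and the log2 peak-to-trough difference from 0.42 to 1.90 for JUNB, 0.045 to 0.40 for JUND and 0.077 to 0.93 for ATF3, each changing sign or peak. Apart from fewer genes or arrays, the cause was not tested. Signal over background was not given, which limits FOSB and the weaker JUN probe sets.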
